A study of Mus musculus with 18 samples.

Results

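The 10 genes described here encode enzymes that turn cholesterol into bile acids and couple these to an amino acid. They were taken by symbol from a table of 55487 mouse genes. Along the pathway they are Cyp7a1, Cyp8b1, Cyp27a1, Cyp7b1, Cyp39a1, Hsd3b7, Akr1d1, Amacr, Slc27a5 and Baat. All 10 were present in the table, passed the filter on low counts in each comparison and were tested.

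Livers came from 18 male C57BL/6J mice bought at 7 weeks of age, with 1 RNA library per mouse and 6 mice per group. Each mouse received an adeno-associated virus (AAV) by retro-orbital injection, carrying either GFP or human LIPA, the gene of lysosomal acid lipase, which frees cholesterol and fatty acids inside lysosomes. Both vectors were AAV8 particles with the TBG promoter, which drives expression in hepatocytes. Diets began 1 week later and lasted 16 weeks, and livers were taken after a 4 h fast. CON-GFP mice carried the GFP vector on a purified control diet, FPC-GFP mice the GFP vector on a diet rich in fructose, palmitate and cholesterol with fructose and glucose in the water, and FPC-LIPA mice the LIPA vector on that same diet. Every group, controls included, had therefore received a vector, and no group without one was analysed here. The diet comparison set FPC-GFP against CON-GFP, the LIPA comparison set FPC-LIPA against FPC-GFP, and FPC-LIPA was also set against CON-GFP to place the groups in order. The groups are shared between these comparisons, so noise in the FPC-GFP libraries enters both of the first pair with opposite signs.

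Bile acids are made only in hepatocytes, and their synthesis is the main route by which the body disposes of cholesterol. In the classical route Cyp7a1 hydroxylates the sterol ring first and sets the overall rate, whereas in the alternative route Cyp27a1 oxidises the side chain first and Cyp7b1 then hydroxylates the ring. Cyp8b1 adds the hydroxyl group that makes cholic acid, and the nuclear receptor FXR, through its partner SHP, lowers synthesis when bile acids return to the liver.

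Total counts per library were between 16632146 and 37739301. Values are CPM, counts relative to library size with a scaling by the trimmed mean of M values (TMM), errors are SD over 6 mice for levels and SE for log2 fold changes, and a gene passed at an adjusted p under 0.05 in edgeR's quasi-likelihood test. The summed level of 7 hepatocyte marker genes ran from 68192 to 98621 CPM in CON-GFP livers, from 59973 to 85225 in FPC-GFP and from 49743 to 75342 in FPC-LIPA, and 1 of the 7 passed, in the lower direction, in each of the diet and LIPA comparisons. Of all genes tested, 23.8% passed with diet and 21.2% with the LIPA vector. Of 8 markers of macrophages and monocytes 6 passed higher in each comparison, and none was at 0 throughout a group. With the LIPA vector Cd68 and Csf1r did not pass, at log2 fold changes of 0.12 and -0.13, and with diet Ptprc and Ccr2 did not, at 0.50 and 0.22. Those 8 genes summed to between 112 and 228.1 CPM in CON-GFP, between 282 and 594 CPM in FPC-GFP and between 634 and 1078 CPM in FPC-LIPA. For 6 stellate cell markers the sums were 168 to 281 CPM, 213 to 292 CPM and 303 to 970.5 CPM, the last value in FPC-LIPA 37 (group median 369). Of the 6, 2 passed higher with diet and 3 with the LIPA vector. The other 3 had negative log2 fold changes with the LIPA vector that did not pass, Des at -0.13, Col1a1 at -0.19 and Reln at -0.28. For Reln these groups did not overlap. The sum of 5 red blood cell markers was between 306 and 586 CPM, 283 and 488 CPM, and 528 and 2559 CPM. With diet 0 passed, and with the LIPA vector 2 passed higher, Hbb-bs and Hbb-bt. Hba-a1 and Hba-a2 did not pass with the LIPA vector, at 0.67 and 0.75. Alas2 went the other way, with means of 146, 115 and 73.5 CPM in CON-GFP, FPC-GFP and FPC-LIPA. It did not pass with the LIPA vector, but fell between FPC-LIPA and CON-GFP by 0.97 ± 0.28 (adjusted p = 0.0216, edgeR). The part of these lists in the results was not tested. Libraries FPC-LIPA 36, 37 and 39 stood apart, with from 6.58% to 8.29% of counts on 85 ribosomal protein genes, against 1.46% to 2.99% in the other 15. The label of library 37 reads 37b, and it was taken as mouse 37. The human transgene has no entry in a mouse gene table, and mouse Lipa was at 247 ± 33.7 CPM in CON-GFP, 340 ± 61.4 CPM in FPC-GFP and 293 ± 51.2 CPM in FPC-LIPA (SD, n = 6).

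Per kilobase of exon, the enzyme of the conjugation step led the pathway. Slc27a5, the ligase that joins bile acids to coenzyme A, had the highest mean in all 3 groups, at 334 ± 64.3 CPM per kb in CON-GFP, 263 ± 40.004 in FPC-GFP and 222 ± 46.3 in FPC-LIPA (SD, n = 6). In CON-GFP the levels per kb of Cyp27a1, Baat and Cyp8b1 came next, at 169 ± 36.1, 162 ± 5.14 and 138 ± 45.9, and these neighbours did not differ beyond their spread. Cyp7b1, Akr1d1 and Amacr followed at 89.4, 71.4 and 61.6 CPM per kb, again within their spread. At the foot of the order were Hsd3b7 at 5.62, Cyp7a1 at 5.58 and Cyp39a1 at 3.57 CPM per kb, so the gene of the rate-setting enzyme was among the least abundant. Only 2 steps of the CON-GFP order exceeded the summed SD of both neighbours, from Slc27a5 to Cyp27a1 and from Amacr to Hsd3b7. In FPC-GFP the step from Baat to Amacr was the only such one, and in FPC-LIPA none was.

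**Figure D1:**
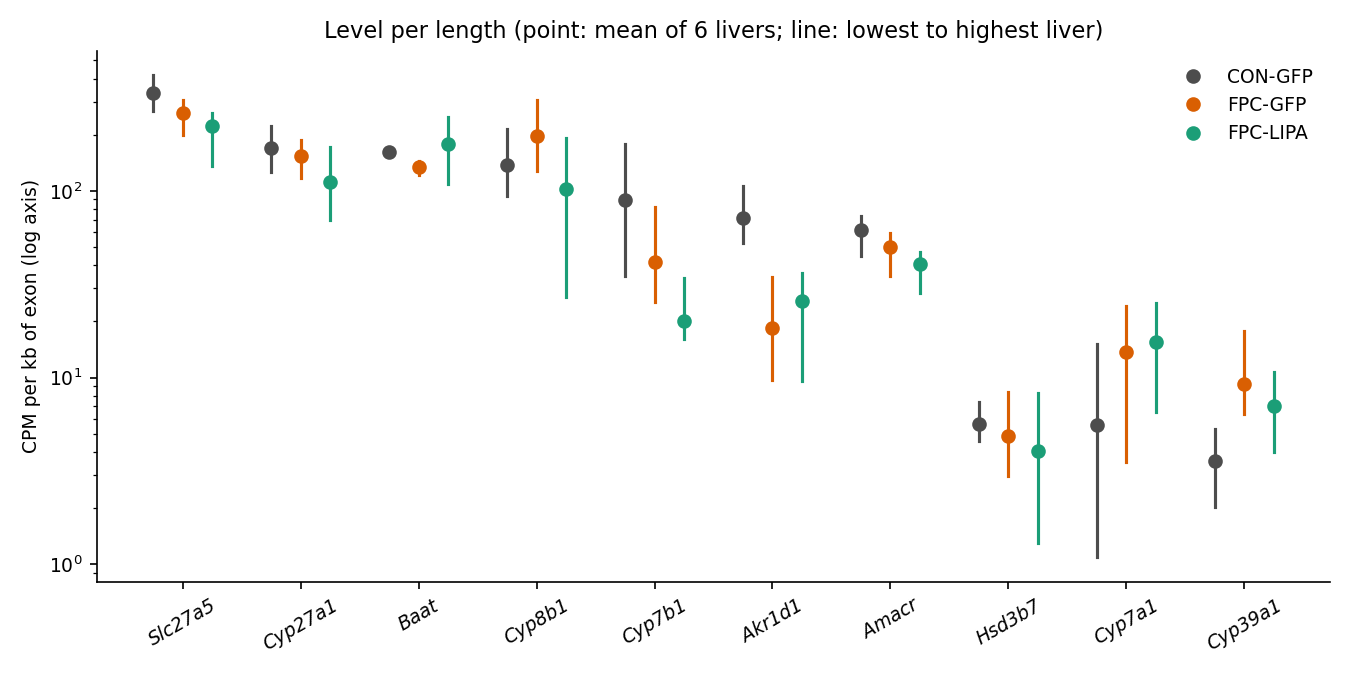
CPM per kb of exon (log axis) of the 10 genes in CON-GFP, FPC-GFP and FPC-LIPA, where points are means of 6 livers and lines run from the lowest to the highest liver. Slc27a5 stood highest in mean level, at 334, 263 and 222 CPM per kb, and the lines of Cyp7a1 were long in all groups.

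On the FPC diet with the GFP vector, 1 of the 10 genes rose and 2 fell. Cyp39a1 was 2.6-fold higher, Akr1d1 was 3.87-fold lower and Cyp7b1 was 2.12-fold lower, each past a 2-fold change as well. Of all genes tested in the diet comparison 23.8% passed, 12.9% higher and 10.9% lower, so 3 of 10 is near that background, while 7.2% of all genes passed with a change of at least 2-fold, 4.76% higher and 2.44% lower. The median log2 fold change was -0.24 over the 10 genes and 0.01 over all genes tested. Groups did not overlap for Cyp39a1, Akr1d1 and Baat, while 10.4% of all genes had groups that did not overlap. In bulk liver, fewer cells of a type and less RNA per cell cannot be told apart.

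With the LIPA vector on the FPC diet, 1 of the 10 genes passed, Cyp7b1, which fell a further 2.01-fold. Of all genes tested in this comparison 21.2% passed, with 14.4% higher and 6.87% lower, and 1.11% passed with a fall of at least 2-fold. The median was -0.23 over the 10 genes and 0.04 over all genes. For none of the 10 were the groups apart, against 7.66% of all genes.

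Between FPC-LIPA and CON-GFP, 2 of the 10 genes rose (Cyp7a1, Cyp39a1) and 3 fell (Cyp7b1, Akr1d1, Amacr), where 22.9% of all genes passed, 14.7% higher and 8.2% lower. All of these but Amacr were past 2-fold, as were 15.1% of all genes, 11.8% higher and 3.25% lower. The median was -0.49 over the 10 genes against 0.04 over all. Groups were apart for Cyp7b1, Akr1d1 and Slc27a5, and for 11.1% of all genes.

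**Figure D2:**
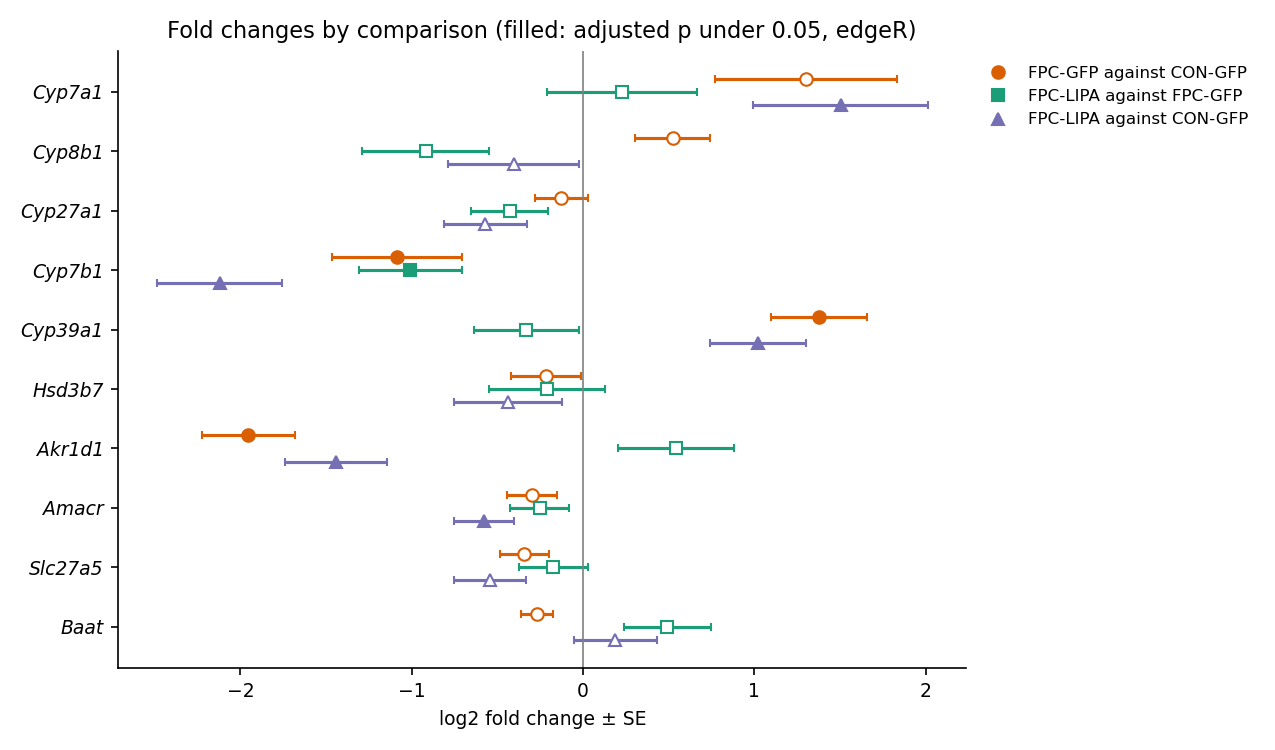
Log2 fold change with its SE for each gene in the 3 comparisons, with filled symbols where the adjusted p was under 0.05 (edgeR). Cyp7b1 lay left of 0 in all 3 comparisons, at -1.08, -1.01 and -2.12, and Akr1d1 lay at -1.95 with diet and 0.55 with the LIPA vector.

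Cyp7a1 (ENSMUSG00000028240, GRCm38 chromosome 4, 6265612 to 6275633, minus strand), the gene of cholesterol 7α-hydroxylase, varied more between mice of a group than any other of the 10 in CON-GFP. It ranged from 4.53 to 63.2 CPM in CON-GFP with a median of 18.1, a 13.9-fold spread. The lowest, median and highest levels were 14.8, 60.6 and 101 CPM in FPC-GFP, and 27.4, 68.5 and 105 CPM in FPC-LIPA. All 3 groups overlapped, with CON-GFP 8 high in its group and FPC-GFP 11 low in its own. The log2 fold change with diet was 1.30 ± 0.53, which did not pass (adjusted p = 0.0870, edgeR). It passed in 4 of 22 alternatives, among them without CON-GFP 8 at 1.91 (adjusted p = 0.0127, edgeR) and without FPC-GFP 11 at 1.502 (adjusted p = 0.0470, edgeR). The LIPA vector gave 0.23 ± 0.44 (adjusted p = 0.720, edgeR), with an interval of 2 SE from -0.65 to 1.10. FPC-LIPA was higher than CON-GFP by 1.504 ± 0.51 on the log2 scale (adjusted p = 0.0450, edgeR). That call was lost in 11 of 23 alternatives, in which the log2 fold change was between 1.27 and 1.54, against 1.27 to 2.101 over all 23. Of the libraries left out in turn, CON-GFP 1, 2, 3, 6 and 7 gave adjusted p of 0.0726, 0.0770, 0.0938, 0.0709 and 0.0922, and FPC-LIPA 31, 33, 36 and 39 gave 0.0546, 0.0512, 0.0973 and 0.0892 (edgeR).

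Cyp7a1 is known to follow the time of day, and the hour at which livers were taken was not given in the sources used here. The summed level of 13 clock genes was between 311 and 429 CPM in CON-GFP, between 187 and 665 CPM in FPC-GFP and between 201 and 463 CPM in FPC-LIPA. With diet 1 clock gene passed, Nr1d1, which was higher by 1.85 ± 0.59 on the log2 scale (adjusted p = 0.0335, edgeR). With the LIPA vector 0 of 13 passed, and list medians were 0.05 with diet and -0.19 with the LIPA vector. With diet 8 of the 13 log2 fold changes were above 0 and 5 below, from 1.94 for Dbp to -1.12 for Ciart, neither of which passed. With the LIPA vector 5 were above 0 and 8 below. A sum or median over genes that moved in both directions does not show such differences. Of all genes tested, 23.8% and 21.2% passed in these comparisons. The part of sampling time in the spread of Cyp7a1 was not tested.

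Cyp8b1 (ENSMUSG00000050445, chromosome 9, 121914356 to 121916305, minus strand), a gene with a single exon, encodes sterol 12α-hydroxylase of the cholic acid branch. Its promoter is shown because it holds a motif of HNF4A, a liver transcription factor. The 250 bases before the start site are chr9:121916306-121916555 on the minus strand, from the RefSeq table for GRCm38.p6. Capitals mark CAAAGTCCA, an HNF4A motif, at positions -67 to -59 from the start site, and TATAAA, at -31 to -26.
Cyp8b1: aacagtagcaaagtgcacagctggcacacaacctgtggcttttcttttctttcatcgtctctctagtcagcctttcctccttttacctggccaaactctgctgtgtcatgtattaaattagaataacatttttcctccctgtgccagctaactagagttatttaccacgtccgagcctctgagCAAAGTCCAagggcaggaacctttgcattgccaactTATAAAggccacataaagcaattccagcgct
Both strands of 300 bases around each start site were searched, and of 32817 mouse promoters 0.475% held CAAAGTCCA and 13.6% held TATAAA. Other motifs searched were CAAGGTCA (1.56%) and CAAGGCCA (2.4%) for NR5A2, TGTTTAC for FOXA (3.65%) and TTATGTAA for the D-box (0.935%). Nuclear receptor repeats of AGGTCA were searched as direct copies with 1 free base between (0.0396%), as direct copies with 4 (0.0152%) and, for FXR, as AGGTCA and TGACCT with 1 (0.00914%). A match describes the letters only. Promoters of 4 of the 10 genes were in the table, those of Cyp8b1, Cyp27a1, Hsd3b7 and Akr1d1, and none of the other 3 held any of these motifs.

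In CON-GFP the lowest, median and highest levels of Cyp8b1 were 183, 250.04 and 418 CPM. FPC-GFP livers had 248, 365 and 597 CPM in the same order. FPC-LIPA livers had 52.6, 150.1 and 377 CPM, and the FPC-LIPA group reached both the lowest values and into the range of the others. The diet gave a log2 fold change of 0.52 ± 0.22 (adjusted p = 0.0955, edgeR) and the LIPA vector one of -0.92 ± 0.37 (adjusted p = 0.0812, edgeR), so neither passed. The diet value passed in 2 of 22 alternatives, among them without CON-GFP 8, at 0.69 (adjusted p = 0.0256, edgeR). The LIPA value passed in 4 of 23 alternatives, among them without FPC-LIPA 33 at -1.13 (adjusted p = 0.0275) and without FPC-LIPA 34 at -1.19 (adjusted p = 0.0290, edgeR). The others were the DESeq2 Wald test (adjusted p = 0.0448) and all 18 libraries in one fit (adjusted p = 0.046, edgeR). FPC-LIPA 36, 37 and 39, the libraries high in ribosomal protein counts, had 141, 52.6 and 126 CPM of Cyp8b1, and FPC-LIPA 31, 33 and 34 had 159, 336 and 377 CPM. Without those 3 libraries, an alternative chosen after seeing the data, the log2 fold change was -0.39 (adjusted p = 0.488, edgeR). In the LIPA comparison Hnf4a fell by 0.98 on the log2 scale (SE 0.32, adjusted p = 0.0425, edgeR), from 493 to 244 CPM. A link between Hnf4a and the level of Cyp8b1 was not tested.

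Cyp27a1 (ENSMUSG00000026170, chromosome 1, 74713574 to 74737892, plus strand) encodes the mitochondrial sterol hydroxylase that opens the alternative route and is also active in macrophages. In CON-GFP its lowest, median and highest levels were 273, 360.0 and 483 CPM. For FPC-GFP they were 254, 328 and 406 CPM, and for FPC-LIPA 151, 238 and 375 CPM. The 3 ranges overlapped, with 3 of the FPC-LIPA livers lower than every FPC-GFP liver. It passed in no comparison, with log2 fold changes of -0.13 ± 0.15 for diet (adjusted p = 0.571), -0.43 ± 0.22 for the LIPA vector (adjusted p = 0.165) and -0.57 ± 0.24 between FPC-LIPA and CON-GFP (adjusted p = 0.0993, edgeR). Its mean was lowest in FPC-LIPA, and the part of macrophages in its level was not tested. Without FPC-LIPA 33 the last pair of values became -0.59 (adjusted p = 0.0379) and -0.75 (adjusted p = 0.0226, edgeR). The value against CON-GFP passed in 4 of 23 alternatives. Besides that one, adjusted p was 0.0499 in the DESeq2 Wald test and, in edgeR, 0.0498 with all 18 libraries in one fit and 0.0467 with a trend on gene length removed.

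Cyp7b1 (ENSMUSG00000039519, chromosome 3, 18071950 to 18243338, minus strand), the oxysterol 7α-hydroxylase of the alternative route, stepped down from group to group. In CON-GFP the lowest, median and highest levels were 75.5, 196 and 384 CPM. The FPC-GFP values were 55.2, 80.5 and 179 CPM. The FPC-LIPA values were 35.0, 37.8 and 73.6 CPM, and 5 of those 6 livers lay between 35.0 and 40.01 CPM. FPC-LIPA did not overlap with CON-GFP, while each overlapped with FPC-GFP. Cyp7b1 fell by 1.08 ± 0.38 on the log2 scale with diet (adjusted p = 0.0495, edgeR) and by 1.01 ± 0.30 with the LIPA vector (adjusted p = 0.0328, edgeR). Between FPC-LIPA and CON-GFP it fell by 2.12 ± 0.37 (adjusted p = 0.00113, edgeR), and this call held in all 23 alternatives, with values from -2.38 to -1.82.

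Each of the separate calls on Cyp7b1 was close to the threshold. The diet call was lost in 13 of 22 alternatives, in which the log2 fold change was between -1.10 and -0.78, against -1.41 to -0.78 over all 22. Among them, adjusted p was 0.0705, 0.0924, 0.125 and 0.0689 without CON-GFP 1, 2, 3 and 7, and 0.0770, 0.0843, 0.0909, 0.0961 and 0.102 without FPC-GFP 11, 12, 13, 16 and 19 (edgeR). The LIPA call was lost in 9 of 23 alternatives, with values from -1.31 to -0.66. Its adjusted p was 0.0603, 0.0573, 0.0512 and 0.0723 without FPC-GFP 11, 12, 13 and 20, and 0.0509, 0.0603 and 0.0663 without FPC-LIPA 31, 37 and 39 (edgeR). FPC-GFP 20 had the highest level of its group, and without it the log2 fold change was -0.68.

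**Figure D3:**
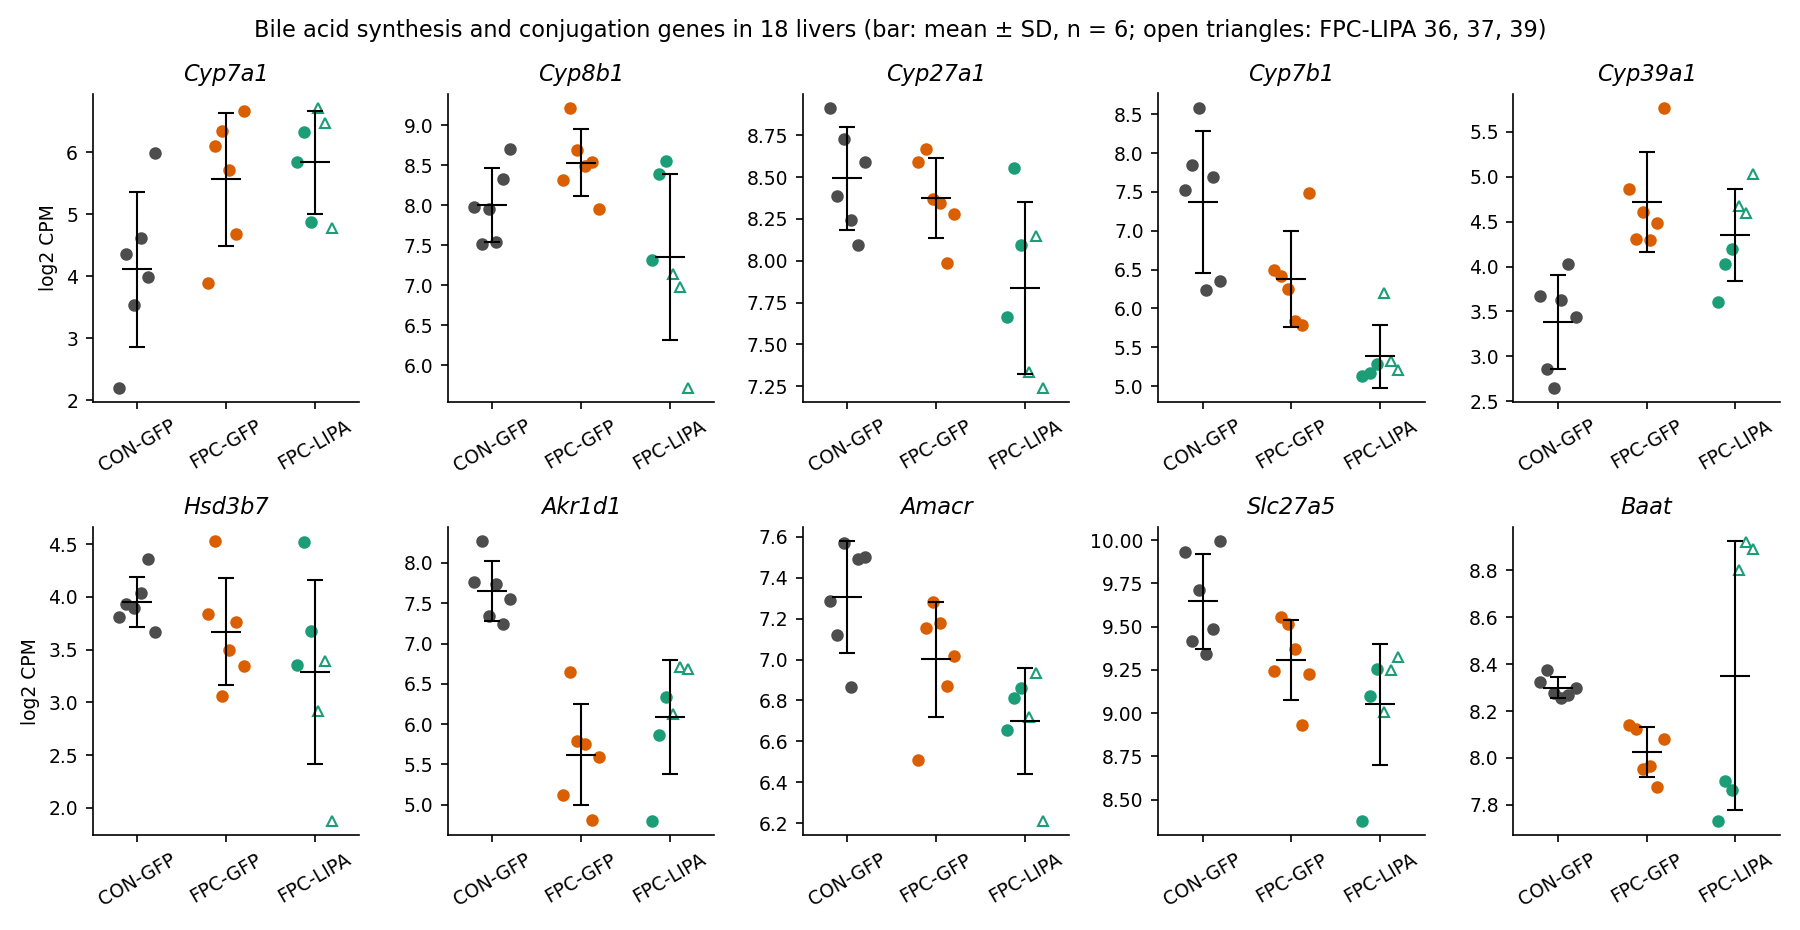
Log2 CPM of the 10 genes in each of 18 livers, with a bar for the mean and SD of each group (n = 6) and open triangles for FPC-LIPA 36, 37 and 39. Akr1d1 of every CON-GFP liver was above that of every FPC liver, and Baat of the 3 libraries drawn as triangles lay at 446, 475 and 484 CPM, above all others.

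Cyp39a1 (ENSMUSG00000023963, chromosome 17, 43667425 to 43751431, plus strand) encodes a further oxysterol 7α-hydroxylase and was higher on the FPC diet. In CON-GFP its lowest, median and highest levels were 6.21, 11.6 and 16.2 CPM. The same values were 19.5, 23.4 and 54.5 CPM in FPC-GFP, and in FPC-LIPA 12.1, 21.2 and 32.7 CPM. Every FPC-GFP liver was above every CON-GFP liver, and FPC-LIPA overlapped with both. It rose by 1.38 ± 0.28 on the log2 scale with diet (adjusted p = 0.00350, edgeR), and all 22 alternatives kept the call, between 1.01 and 1.56. With the LIPA vector its log2 fold change was -0.33 ± 0.31 (adjusted p = 0.432, edgeR), which did not pass. It was higher in FPC-LIPA than in CON-GFP by 1.02 ± 0.28 (adjusted p = 0.0175, edgeR). FPC-LIPA 36, 37 and 39 had the 3 highest levels of their group, and without them that value was 0.53 (adjusted p = 0.201, edgeR). The direction of Cyp39a1 with diet was thus opposite to that of Cyp7b1, the other oxysterol hydroxylase among the 10.

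Hsd3b7 (ENSMUSG00000042289, chromosome 7, 127800604 to 127803802, plus strand) encodes the dehydrogenase that oxidises the ring after the first hydroxylation, a step shared by both routes. In CON-GFP its lowest, median and highest levels were 12.7, 15.0 and 20.5 CPM. Livers of FPC-GFP had 8.24, 12.3 and 23.0 CPM, and in FPC-LIPA 3.59, 10.3 and 22.8 CPM. The ranges overlapped, and the lowest level was in FPC-LIPA 37. No comparison passed, with log2 fold changes of -0.21 ± 0.21 (adjusted p = 0.465), -0.21 ± 0.34 (adjusted p = 0.665) and -0.44 ± 0.31 (adjusted p = 0.317, edgeR) for diet, LIPA vector and both. Without FPC-LIPA 33, the highest of its group, FPC-LIPA differed from CON-GFP by -0.79 (adjusted p = 0.0296, edgeR).

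Akr1d1 (ENSMUSG00000038641, chromosome 6, 37530173 to 37568815, plus strand) encodes the steroid 5β-reductase that gives bile acids their bent ring, and it had the largest log2 fold change with diet of the 10. Its promoter is shown as that of the gene with the largest diet change, and covers chr6:37529923-37530172 on the plus strand of GRCm38.p6 (RefSeq). It has no capitals, since none of the motifs given for Cyp8b1 was in it.
Akr1d1: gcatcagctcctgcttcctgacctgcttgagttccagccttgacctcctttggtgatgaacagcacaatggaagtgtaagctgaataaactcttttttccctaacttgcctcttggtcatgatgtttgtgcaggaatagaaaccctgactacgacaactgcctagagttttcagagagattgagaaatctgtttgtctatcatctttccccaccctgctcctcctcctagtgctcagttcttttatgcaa
The lowest, median and highest levels of Akr1d1 in CON-GFP were 152, 199.99 and 309 CPM. In FPC-GFP they were 28.1, 51.1 and 99.9 CPM. In FPC-LIPA they were 27.7, 75.4 and 105 CPM, so that all 12 livers on the FPC diet were below all 6 on the control diet. Akr1d1 fell by 1.95 ± 0.27 on the log2 scale with diet (adjusted p = 0.000349, edgeR), and between FPC-LIPA and CON-GFP it fell by 1.44 ± 0.30 (adjusted p = 0.00380, edgeR). Both calls held in all alternatives, from -2.23 to -1.71 for diet and from -1.88 to -1.27 for the second. The LIPA vector gave 0.55 ± 0.34 (adjusted p = 0.236, edgeR), with an interval of 2 SE from -0.13 to 1.24. A pseudogene on the same strand, Gm7463, overlaps Akr1d1 and had a mean of 1.64 CPM.

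Amacr (ENSMUSG00000022244, chromosome 15, 10981756 to 10996626, plus strand) encodes the racemase that readies the side chain for shortening in peroxisomes. In CON-GFP its lowest, median and highest levels were 117, 168 and 190.3 CPM. For FPC-GFP they were 90.9, 136 and 155 CPM, and in FPC-LIPA 73.9, 109 and 122 CPM. Neighbouring groups overlapped, and the difference passed between FPC-LIPA and CON-GFP only, where Amacr fell by 0.58 ± 0.18 on the log2 scale (adjusted p = 0.0291, edgeR). This was under 2-fold. The log2 fold changes with diet and with the LIPA vector were -0.30 ± 0.15 (adjusted p = 0.147) and -0.25 ± 0.17 (adjusted p = 0.281, edgeR). The call was lost in 7 of 23 alternatives, among them without CON-GFP 3, 7 or 8 (adjusted p = 0.0691, 0.0610 and 0.0622) and without FPC-LIPA 31 (adjusted p = 0.0505, edgeR).

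The conjugation genes act last in the pathway, Slc27a5 before Baat. Slc27a5 (ENSMUSG00000030382, chromosome 7, 12988346 to 12998192, minus strand) had lowest, median and highest levels of 650.2, 777 and 1021 CPM in CON-GFP. In FPC-GFP livers the values were 488, 635 and 752 CPM, and in FPC-LIPA 332, 579 and 640.2 CPM. Every FPC-LIPA liver was below every CON-GFP liver, yet no comparison passed, with log2 fold changes of -0.34 ± 0.14 for diet (adjusted p = 0.0959), -0.17 ± 0.20 for the LIPA vector (adjusted p = 0.531) and -0.54 ± 0.21 for both (adjusted p = 0.0721, edgeR). The last passed in 4 of 23 alternatives, with adjusted p of 0.0327 in the DESeq2 Wald test and, in edgeR, 0.0395 with all 18 libraries in one fit, 0.0386 with a trend on gene length removed and 0.0494 without FPC-LIPA 36, 37 and 39. FPC-LIPA 31 was far below the other livers of its group.

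Baat (ENSMUSG00000039653, chromosome 4, 49489422 to 49506557, minus strand) encodes the transferase that couples bile acids to taurine or glycine. In CON-GFP its lowest, median and highest levels were 305, 312 and 332 CPM, and in FPC-GFP 235, 261 and 282 CPM. These groups did not overlap, and the log2 fold change of -0.27 ± 0.094 lay just outside the threshold (adjusted p = 0.05001, edgeR). It passed in 5 of 22 alternatives, among them without FPC-GFP 11 (adjusted p = 0.0471) and without FPC-GFP 20 (adjusted p = 0.0491, edgeR), and in the DESeq2 Wald test the adjusted p was 0.0040. Within FPC-LIPA, levels were 212, 239 and 233 CPM in FPC-LIPA 31, 33 and 34, and 446, 475 and 484 CPM in FPC-LIPA 36, 37 and 39. The first 3 reached at most 239 CPM, within or under the FPC-GFP range, and the others lay above all 15 remaining livers. Over all 6, the log2 fold changes were 0.49 ± 0.25 against FPC-GFP (adjusted p = 0.155) and 0.19 ± 0.24 against CON-GFP (adjusted p = 0.586, edgeR). Without FPC-LIPA 36, 37 and 39 they became -0.18 (adjusted p = 0.460) and -0.45 (adjusted p = 0.0311, edgeR). The direction of Baat in FPC-LIPA thus turned without the libraries high in ribosomal protein counts. These libraries were left out after seeing the data and were the 3 highest of their group for Baat. Lower values without them were therefore bound to follow, and the adjusted p describes the remaining livers only.

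**Figure D4:**
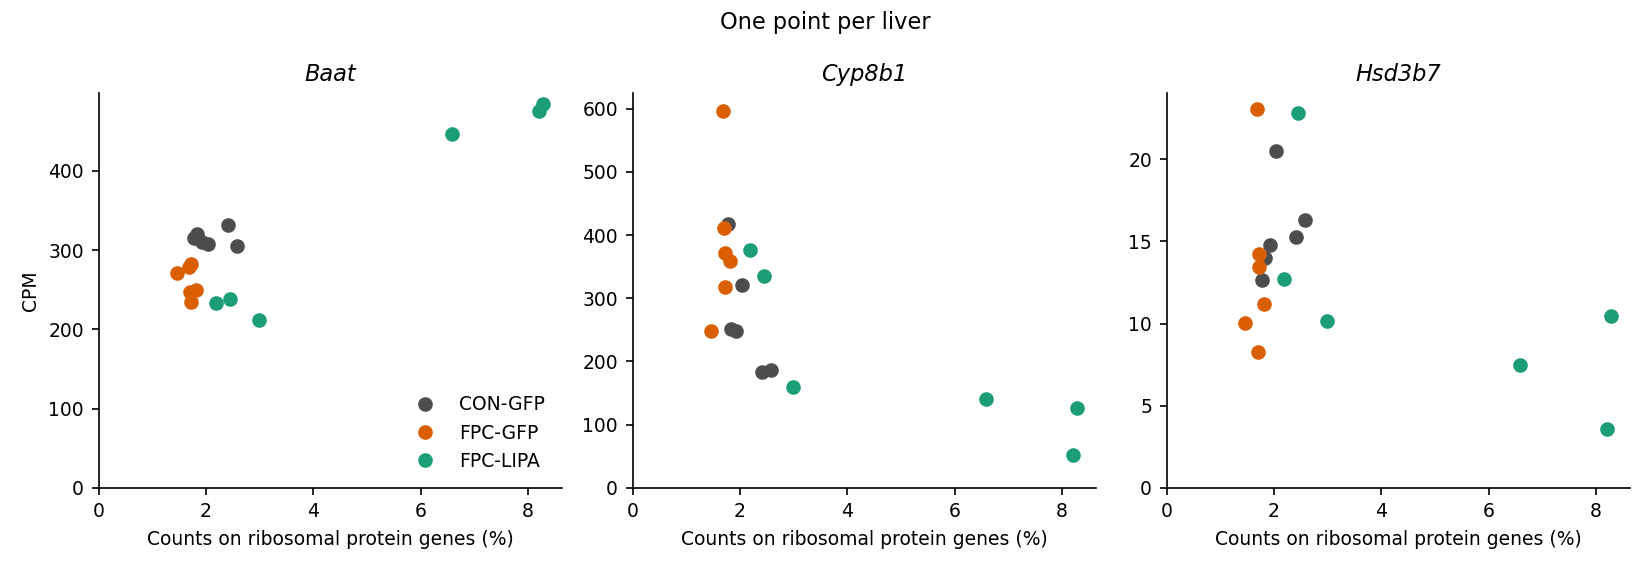
CPM of single genes in each liver against the percentage of counts on ribosomal protein genes, with 1 point per liver. The 3 FPC-LIPA livers at 6.58% to 8.29% had Baat at 446 to 484 CPM, and no other liver reached those levels.

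Since Cyp7a1 and Cyp7b1 open and continue different routes, their ratio within each liver was compared, which does not depend on how libraries are scaled. The ratio is of CPM, not per length, so it is not a ratio of transcripts, and only its differences between groups are used. The ratio of Cyp7b1 to Cyp7a1 was between 1.29 and 40.002 in CON-GFP with a median of 12.1. It was between 0.939 and 6.07 in FPC-GFP with a median of 1.502, and between 0.451 and 1.34 in FPC-LIPA with a median of 0.655. The ratio was thus lower from group to group, and CON-GFP and FPC-LIPA overlapped only through CON-GFP 8, at 1.29. On the log2 scale the difference was -2.45 with diet, -1.26 with the LIPA vector and -3.71 between FPC-LIPA and CON-GFP. The ratio uses the same levels of both genes as above, and the 3 differences share groups, so they are not separate evidence. Over 6 exact two-sided permutation tests (6 against 6 livers, smallest possible p 0.00216), p was 0.0216, 0.0238 and 0.00649, and adjusted p was 0.0357, 0.0357 and 0.0325 for these. Among the libraries whose labels carry sample sheet numbers from 55 to 68 (4 CON-GFP, 5 FPC-GFP and 5 FPC-LIPA) none of the 3 passed, with differences of -1.87, -1.43 and -3.31 and adjusted p of 0.152, 0.0952 and 0.0952 (exact permutation tests).

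The ratio of Cyp8b1 to Cyp7a1, which sets the cholic acid branch beside the entry step, had medians of 14.6 in CON-GFP, 7.76 in FPC-GFP and 2.34 in FPC-LIPA. It ran from 6.61 to 54.6, from 2.45 to 21.5 and from 1.34 to 12.9, with overlap between all groups. The log2 difference was -0.92 with diet (p = 0.186, adjusted p = 0.186, exact permutation test), which did not pass. It was -1.45 with the LIPA vector (p = 0.0649, adjusted p = 0.0779, exact permutation test), and -2.37 between FPC-LIPA and CON-GFP (p = 0.0108, adjusted p = 0.0325). The LIPA value had an unadjusted p of 0.0303 without FPC-GFP 20, of 0.0130 without FPC-LIPA 34 and of up to 0.126, without FPC-GFP 11, when another single library was left out (exact permutation test). Without FPC-LIPA 36, 37 and 39 it was -0.56 (exact permutation p = 0.524).

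**Figure D5:**
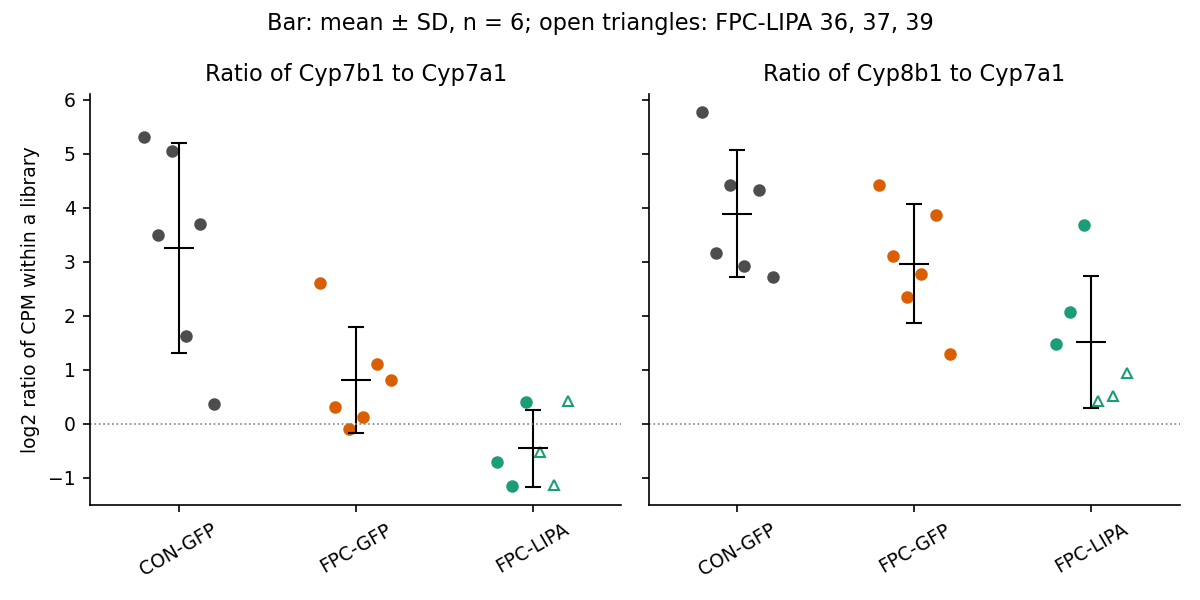
Log2 ratio of CPM within each liver for Cyp7b1 to Cyp7a1 and Cyp8b1 to Cyp7a1, with a bar for mean and SD (n = 6), open triangles for FPC-LIPA 36, 37 and 39 and a dotted line at equal CPM. The mean log2 ratio of Cyp7b1 to Cyp7a1 was 3.26, 0.81 and -0.45 in CON-GFP, FPC-GFP and FPC-LIPA.

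Of 12 other enzymes of bile acid synthesis and side chain shortening, 11 were tested, and Ch25h, a cholesterol hydroxylase, was under the filter. With diet 1 rose and 3 fell, so 4 of 11 passed beside 23.8% of all genes, and the median was -0.18. Cyp46a1, an oxysterol-forming hydroxylase, fell by 1.499 ± 0.33 on the log2 scale (adjusted p = 0.00590, edgeR). Cyp2c70, which makes the muricholic acids of mice, fell by 0.98 ± 0.25 (adjusted p = 0.0111, edgeR), from 375 to 189 CPM. Akr1c6, a hydroxysteroid dehydrogenase, fell by 0.92 ± 0.18 (adjusted p = 0.00273, edgeR), and Hsd17b4, a peroxisomal enzyme of side chain shortening, rose by 0.30 ± 0.099 (adjusted p = 0.0375, edgeR). With the LIPA vector Akr1c6 rose by 1.24 ± 0.37 (adjusted p = 0.0328, edgeR) and Acox2, the oxidase that begins side chain shortening, fell by 0.72 ± 0.22 (adjusted p = 0.0330, edgeR), so 2 of 11 passed beside 21.2% of all genes, with a list median of -0.09. The rise of Akr1c6 was uneven, and its FPC-LIPA and FPC-GFP groups overlapped. Of its FPC-LIPA livers 3 lay above every CON-GFP liver and 3 below every one (log2 0.27 ± 0.36, adjusted p = 0.599, edgeR). Cyp2c70 in the LIPA group was at 214 CPM, still below CON-GFP (log2 -0.78 ± 0.27, adjusted p = 0.0466, edgeR).

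Of 14 regulators of these enzymes, with diet 1 rose and 4 fell with a median of -0.33, with the LIPA vector 0 rose and 4 fell with a median of -0.21, and between FPC-LIPA and CON-GFP 0 rose and 6 fell with a median of -0.67. Of all genes 23.8%, 21.2% and 22.9% passed in these comparisons, in either direction. Nr1h4, the gene of FXR, was at 176 CPM in CON-GFP, 139 in FPC-GFP and 109 in FPC-LIPA, and fell by 0.34 ± 0.11 with diet (adjusted p = 0.0354, edgeR). Nr0b2, the gene of SHP, was at 50.5, 26.2 and 34.7 CPM, and its log2 fold change with diet of -0.94 ± 0.33 did not pass (adjusted p = 0.0505, edgeR). Ppargc1a, a coactivator of fasting metabolism, fell by 1.17 ± 0.28 with diet (adjusted p = 0.00869, edgeR). The xenobiotic receptors Nr1i3 and Nr1i2 fell by 0.70 ± 0.19 (adjusted p = 0.0144) and 0.67 ± 0.17 (adjusted p = 0.00994, edgeR) with diet.

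Klb, the co-receptor for the intestinal hormone FGF15, rose by 0.38 ± 0.13 with diet (adjusted p = 0.0410, edgeR) and fell by 0.77 ± 0.20 with the LIPA vector (adjusted p = 0.0230, edgeR). Its receptor Fgfr4 was at 29.6, 28.9 and 17.2 CPM in the 3 groups, and the LIPA log2 fold change of -0.71 ± 0.31 did not pass (adjusted p = 0.102, edgeR). Of 6 target genes of FXR, Slc51a was not tested, with means of 0, 0.0103 and 0.00483 CPM in CON-GFP, FPC-GFP and FPC-LIPA. Of the other 5, Abcb4, a phospholipid transporter of bile, rose with diet by 0.37 ± 0.13 (adjusted p = 0.0434, edgeR), and Slc51b, a subunit of the basolateral bile acid transporter, rose with the LIPA vector by 1.69 ± 0.51 (adjusted p = 0.0335, edgeR), from 0.698 to 2.17 CPM. The FPC-LIPA and FPC-GFP groups of Slc51b overlapped. With the LIPA vector 3 of the 5 were below 0 and did not pass, Abcb11 at -0.17, Abcb4 at -0.42 and Mafg at -0.39. List medians were 0.06 and -0.17 with diet and with the LIPA vector, in which 23.8% and 21.2% of all genes passed.

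Cyp7b1 is more abundant in male than in female mouse liver, and it was set beside a list of 12 male-biased liver genes of which it is 1. With diet 6 of the 12 fell, 0 rose and the median was -0.81, and with the LIPA vector 8 fell, 1 rose and the median was -1.22, beside medians of 0.01 and 0.04 over all genes, of which 10.9% fell and 12.9% rose with diet and 6.87% fell and 14.4% rose with the LIPA vector. Hsd3b5, a steroid dehydrogenase, was at 170.3 CPM in CON-GFP, 19.0 in FPC-GFP and 0.557 in FPC-LIPA. It fell by 3.14 ± 1.04 with diet (adjusted p = 0.0401, edgeR) and by 5.04 ± 1.21 with the LIPA vector (adjusted p = 0.0180, edgeR). The groups of Hsd3b5 overlapped in both comparisons, and only 2 FPC-LIPA livers lay below every FPC-GFP liver. Mup20, a major urinary protein gene, rose by 2.26 ± 0.52 with the LIPA vector (adjusted p = 0.0159, edgeR), while 8 others of the list fell. Its groups overlapped, with 4 FPC-LIPA livers above every FPC-GFP liver. Of 11 female-biased genes 7 were tested, of which 1 passed with diet, Cyp2a4, higher by 5.84 ± 0.85 (adjusted p = 0.000474, edgeR), and 0 passed with the LIPA vector.

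Genes whose log2 CPM ran most like that of 4 of the enzymes over the 18 livers were sought among 9652 genes with a mean of at least 5 CPM, as a description of livers that share diet, vector and library effects. Cyp7b1 was most like Selenbp2 (Pearson r 0.93, Spearman rho 0.91), Mup7 (0.92, 0.89) and Serpina1e (0.90, 0.89), and the last pair have near-identical relatives. Cyp8b1 was most like Acad10 (0.95, 0.93), Ugt1a1 (0.95, 0.92) and Lrrc61 (0.94, 0.96). For Cyp27a1 the likest were Slc29a1 (0.95, 0.93), Rusc2 (0.95, 0.86) and Tysnd1 (0.94, 0.89). Cyp7a1 had weaker partners in Osbpl3 (0.78, 0.66), Olfml1 (0.75, 0.67) and Nagk (0.74, 0.67).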

How the data were processed

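RNA of 18 livers (1 library per mouse, separate mice, 6 per group) was sequenced by the authors. Reads were trimmed with Trimmomatic, mapped to GRCm38 (mm10) with HISAT2 2.1.0 and counted per gene with featureCounts of Subread, and the deposited values are these raw counts, without normalization. The strand setting, annotation version, handling of multi-mapping reads and the kit used for each library are not given in the sources used here. The table held 23 columns, of which 5 were not used.

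Each comparison was fitted on its own 12 libraries in edgeR 4.0.16 (R 4.3.3): filterByExpr, TMM, glmQLFit and glmQLFTest, with Benjamini-Hochberg adjustment over all genes tested (14307 for diet, 14620 for the LIPA vector, 14433 for FPC-LIPA against CON-GFP). The fit was tested on simulated data. CPM were scaled by TMM over 18 libraries, log2 CPM used a prior count of 2, and exon lengths came from GENCODE. Ratios were compared with exact permutation tests in scipy 1.17.1.

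The members and gene lists were chosen with earlier results of these data known. Named genes were the 10 members, a few fixed regulators, and of each list at most 3 genes per direction and comparison with the largest change among those that passed. TMM was replaced by upper-quartile factors, by the size factors of DESeq2 1.42.0 or by library size alone, and the test by edgeR's exact test or the Wald test of DESeq2. Further alternatives were other filters and thresholds, a joint fit of all 18 libraries, a fit of those with sheet numbers 55 to 68 only, removal of a trend on gene length and leaving out each library in turn. Leaving out FPC-LIPA 36, 37 and 39 was added after seeing the data. Calls of single genes outside the 10 members were not followed through these alternatives. One regulator, with its promoter motif, is not reported here.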

Additional observations from a re-analysis of the deposited data

Results flagged for a closer look

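In 36 groups of 6 livers, 2 held a liver whose gap to its nearest neighbour was large for the range of the group, and chance alone marks about 5% of groups. Cyp7b1 in FPC-LIPA 36 was at 73.6 CPM, while the other 5 livers of the group lay between 35.0 and 40.01 CPM. Slc27a5 in FPC-LIPA 31 was at 332 CPM, while the other 5 lay between 514 and 640.2 CPM.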

How the results depend on the processing

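No paired analysis was possible because the mouse numbers in the labels are different in every group. Of the log2 fold changes of single genes under the alternatives, 606 kept their direction and their side of the threshold, 42 lost the call, 25 gained it and 7 turned. The turned values were Cyp27a1 with diet at 0.081 (library size alone), Hsd3b7 with the LIPA vector at 0.0092 (without FPC-GFP 12, in a range from -0.54 with 1 library left out), and, without FPC-LIPA 36, 37 and 39, Cyp7a1 at -0.039, Hsd3b7 at 0.21 and Baat at -0.18 with the LIPA vector and Cyp8b1 at 0.14 and Baat at -0.45 against CON-GFP. Only the last of these passed, in a fit chosen after seeing the data that left out the highest livers for Baat. Of all genes, 3410 of 14307 passed with diet, and, with 1 library left out, between 2466 (FPC-GFP 19 absent) and 3569 (CON-GFP 8 absent). The number of the 10 genes passing with diet was from 2 to 5 with 1 library left out (5 without CON-GFP 8). With the LIPA vector it was 2 under the DESeq2 Wald test and with all 18 libraries, 0 with sample sheet numbers from 55 to 68, 0 without FPC-LIPA 36, 37 and 39, 0 at an adjusted p under 0.01, and from 0 to 3 with 1 library left out: 0 without any of FPC-GFP 11, 12, 13 and 20 and FPC-LIPA 31, 37 and 39, 2 without FPC-LIPA 34 and 3 without FPC-LIPA 33. Of all genes, 3102 of 14620 passed with the LIPA vector, 104 of 14736 with sheet numbers from 55 to 68, 186 of 15246 without FPC-LIPA 36, 37 and 39, and, with 1 library left out, between 1092 (FPC-LIPA 36 absent) and 5582 (FPC-LIPA 33 absent). Between FPC-LIPA and CON-GFP the number of the 10 genes passing was 2 with sheet numbers from 55 to 68, 2 at an adjusted p under 0.01, and from 3 to 6 with 1 library left out (3 without CON-GFP 3, CON-GFP 7 or FPC-LIPA 31). Of all genes, 3304 of 14433 passed there, 1402 of 14914 with sheet numbers from 55 to 68, and, with 1 library left out, between 2382 (CON-GFP 1 absent) and 4690 (FPC-LIPA 33 absent). Libraries outside those sheet numbers (CON-GFP 1 and 2, FPC-GFP 20, FPC-LIPA 37) were too few to be compared alone. The log2 difference of the ratio of Cyp7b1 to Cyp7a1 with diet was -1.87 (exact permutation p = 0.127, adjusted p = 0.152) with sheet numbers from 55 to 68, and with the LIPA vector -1.30 (exact permutation p = 0.0952) without FPC-LIPA 36, 37 and 39. That of Cyp8b1 to Cyp7a1 between FPC-LIPA and CON-GFP was -1.97 (exact permutation p = 0.0635, adjusted p = 0.0952) and -1.48 (exact permutation p = 0.119) in these. On adjusted p, with sheet numbers from 55 to 68, none of the 6 ratio differences passed, also Cyp7b1 to Cyp7a1 with the LIPA vector (-1.43) and against CON-GFP (-3.31), both at 0.0952 (exact permutation test). With 1 library left out the Cyp7b1 ratio differed by -3.02 to -2.03, -1.44 to -0.90 and -4.29 to -3.29, and the Cyp8b1 ratio by -1.21 to -0.55, -1.89 to -1.16 and -2.81 to -1.998, for diet, LIPA vector and both. Library size alone moved the median log2 fold change of all genes from 0.01 to 0.21 with diet, from 0.04 to -0.09 with the LIPA vector and from 0.04 to 0.12 between FPC-LIPA and CON-GFP, and turned the split of all genes with diet from 1850 higher and 1560 lower to 3387 and 692. The causes were not tested.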
